A study of Mus musculus with 6 samples.

Results

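Cytosolic ribosomal proteins are the protein parts of the ribosome in the cytoplasm. The genes described here are those whose symbol begins with Rpl (large subunit) or Rps (small subunit) and continues with a digit, a p or an a as in Rplp0 and Rpsa, without the kinases named Rps6k and without Rps19bp1. They numbered 98 of the 17680 gene symbols measured, 59 of the large and 39 of the small subunit. By their symbols, 77 are core genes, 6 are copies ending in l, 2 are copies ending in l1, 10 are pseudogenes marked -ps and 3 are retrogenes ending in rt or rg1. RNA was sequenced in bulk from kidneys of wild-type C57BL/6 mice aged 6 to 8 weeks. The 3 LPS mice had received bacterial lipopolysaccharide into the peritoneum 24 h earlier, which the study used to model septic kidney injury, and the 3 Control mice had received phosphate-buffered saline by the same route.

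Each ribosome holds 1 copy of nearly every core protein, and the core genes are expressed in nearly all cells. Their messenger RNAs begin with a run of pyrimidines, the 5′ terminal oligopyrimidine tract, through which the kinase mTOR and the RNA-binding protein LARP1 control their translation and stability. An RNA level therefore does not measure how much of the protein is made.

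The LPS libraries held 31313181 to 33454344 counts and the Control libraries 29097558 to 31071170 counts. Correlations of log2 CPM (the count scaled to the library total) lay between 0.982 and 0.991 within the groups and between 0.905 and 0.916 across them. The kidney markers Umod, of the loop of Henle, and Aqp2, of the collecting duct, did not pass the test, and 6 of 8 kidney markers were lower in LPS kidneys. LPS replicate 2 stood apart in seminal vesicle transcripts, with 3.67% of its counts in 10 such genes, against 0.00328% to 0.00458% in the other 5 libraries.

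To show the sequence around the start of these genes, promoter windows of GRCm38.p6 are printed from RefSeq, from 40 bases before the annotated start through the first 20 bases of the transcript. The first 5 belong to the core genes with the largest log2 fold changes and the last 4 to those with the smallest, among 49 core genes considered for printing, all with a single promoter entry. Capitals mark CTTTC within 20 bases of the start on the coding strand, and CCGGAAG, the core of sites of ETS-family factors.
Rpl12 (chr2:32961672-32961731, plus strand): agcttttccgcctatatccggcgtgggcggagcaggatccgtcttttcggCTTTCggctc
Rplp0 (chr5:115559427-115559486, plus strand): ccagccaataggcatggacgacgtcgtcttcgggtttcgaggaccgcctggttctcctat
Rpl18 (chr7:45718031-45718090, plus strand): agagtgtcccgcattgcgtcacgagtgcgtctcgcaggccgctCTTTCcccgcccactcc
Rpl10 (chrX:74270776-74270835, plus strand): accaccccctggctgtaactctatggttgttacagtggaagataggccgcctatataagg
Rps12 (chr10:23787190-23787249, minus strand): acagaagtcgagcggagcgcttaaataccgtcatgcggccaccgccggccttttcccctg
Rps15 (chr10:80292391-80292450, plus strand): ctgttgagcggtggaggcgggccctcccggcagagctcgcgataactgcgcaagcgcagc
Rps27 (chr3:90213629-90213688, minus strand): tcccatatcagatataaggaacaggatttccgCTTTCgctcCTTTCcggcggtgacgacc
Rpl37a (chr1:72711220-72711279, plus strand): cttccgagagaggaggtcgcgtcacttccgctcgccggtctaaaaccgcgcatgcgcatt
Rpl26 (chr11:68901526-68901585, plus strand): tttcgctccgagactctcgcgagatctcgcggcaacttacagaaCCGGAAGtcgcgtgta
Of these 9 windows 3 hold CTTTC near the start, 1 holds CCGGAAG and 5 hold neither. Promoters were found for 57 of 77 core genes. CTTTC lay within 20 bases of the start on the coding strand in 18 of them (31.6%), against 6.44% of the 27025 genes of the table, and on the other strand in 7.02%, against 5.67%. CCGGAAG lay on either strand of the 300-base window in 42.1% of core genes and 9.93% of all genes. The TATA box letters TATAAA, searched on the coding strand, lay in 8.77% and 9.77%. Among the core genes whose RNA was called higher in LPS kidneys, 31.2% held CTTTC there and 41.7% held CCGGAAG. Among those not called, 3 of 9 held CTTTC and 4 of 9 held CCGGAAG. A gene with several annotated starts counted if any of them held the letters, and a match is not a measured site.

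Ribosomal protein RNA made up a larger share of the LPS libraries. The 98 genes took 2.74%, 2.81% and 2.96% of all counts in LPS replicates 1, 2 and 3, against 2.22%, 2.15% and 2.12% in Control replicates 1, 2 and 3. Every LPS library lay above every Control library, and the mean share was 2.84 ± 0.111% in LPS and 2.16 ± 0.0508% in Control kidneys (SD, n = 3 each), a ratio of 1.31. The 95% exact binomial intervals, which cover counting error only, ran from 2.73% to 2.75% in LPS replicate 1 and from 2.21% to 2.22% in Control replicate 1. The exact two-sided permutation test gave p = 0.1, the smallest p that 3 libraries against 3 allow. In bulk RNA, more of a cell type and more RNA per cell cannot be told apart, and a share of counts says nothing of the absolute amount of RNA.

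**Figure D1:**
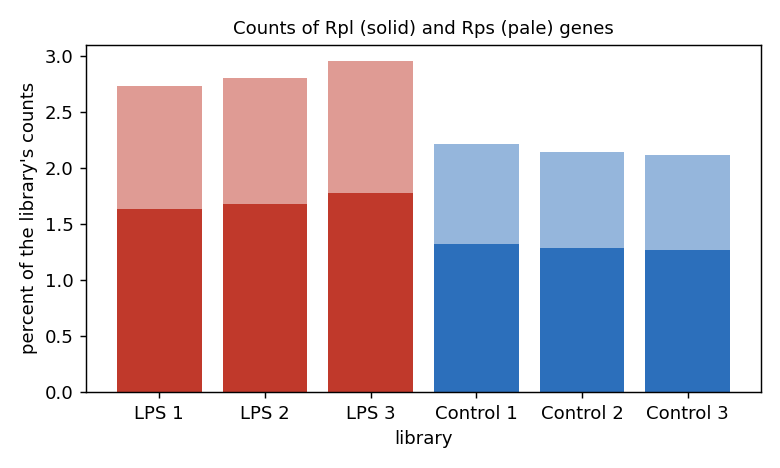
Percent of each library's counts in Rpl genes (solid) and Rps genes (pale), for 3 LPS and 3 Control libraries. The bars reach 2.74% to 2.96% in LPS and 2.12% to 2.22% in Control libraries.

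The rise was broad and small. Of 91 genes that passed the filter on low counts, 70 were higher and 1 was lower in LPS kidneys by edgeR's quasi-likelihood test with Benjamini-Hochberg adjustment over 14219 genes, where 25.7% of all genes were higher and 24.8% lower. Among the 77 core genes, all of which passed the filter, 65 were higher (84.4%), none was lower and 12 were not called. Their median log2 fold change was 0.38, with quartiles of 0.28 and 0.51, beside a median of 0.01 over all genes tested with quartiles of -0.40 and 0.36. At least 1.5-fold differences were found for 8 core genes. In CPM the groups did not overlap for 70 core genes, all higher in LPS, where the groups of 30.5% of all genes did not overlap with LPS higher and of 29.8% with LPS lower.

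**Figure D2:**
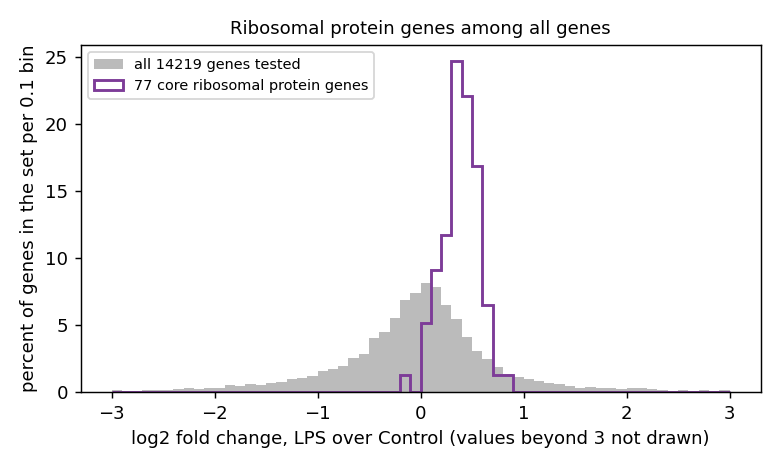
Distribution of the log2 fold change (LPS over Control) for all 14219 genes tested, in grey, and for the 77 core ribosomal protein genes, as a line. The core genes form a narrow peak around their median of 0.38, while all genes centre on 0.01.

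LPS replicate 3 was the highest of the 6 libraries for 68 of 77 core genes. Without it the median over the 91 tested genes was 0.31, and 63 of them were called higher. Without LPS replicate 2, which stood apart in seminal vesicle transcripts, the median was 0.40 and 64 genes were higher, and with all libraries but without those transcripts 70 were higher. Several transcripts used as markers of other cells differed between the groups too. All 7 tested neutrophil markers were higher in LPS kidneys, with a summed level of 70.0 to 101 unscaled CPM against 3.46 to 4.23 in Control kidneys, while the neutrophil-defining Ly6g had 4 counts over the LPS libraries, against 2 over the Controls. Of 8 macrophage markers 5 were higher and 1 was lower. The 8 summed to 469 to 641 unscaled CPM in LPS kidneys, against 129 to 208 in Controls. All marker sums that follow in this paragraph are unscaled CPM too. Cd14 alone separated these sums, and without it the other 7 summed to 189 to 221 CPM in LPS kidneys, against 121 to 199.7 CPM in Controls, which overlap. Csf1r was the marker that was lower, and Lyz2 and Adgre1 were not called. The 8 kidney markers summed to 6090 to 6662 CPM in LPS kidneys, against 14244 to 15010 CPM in Controls. All 5 tested red cell markers were lower, with sums of 52.5 to 126 CPM in LPS kidneys, against 244 to 329 CPM in Controls. Of 3 tested lymphocyte markers 2 were lower, with sums of 1.11 to 2.57 CPM in LPS kidneys, against 3.2 to 14.8 CPM in Controls, and Ms4a1, Cd79a and Cd3e were too low to test. The part of these cells in the ribosomal protein result was not tested.

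Length and abundance were also set beside the result. The core genes are short, with a median gene length of 795 bases as the deposited FPKM values (fragments scaled to gene length and library total) imply it. The other 650 tested genes of up to 1000 bases had a median log2 fold change of 0.02, with 29.1% higher and 27.8% lower. The 802 other genes at least as abundant as the lower quartile of the core genes, 211 CPM, had a median of -0.11, with 32.4% higher and 43.0% lower. The 78 tested mitochondrial ribosomal protein genes (Mrpl and Mrps symbols), which build the separate ribosome of mitochondria, had a median of -0.07, with 14.1% higher and 25.6% lower.

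**Figure D3:**
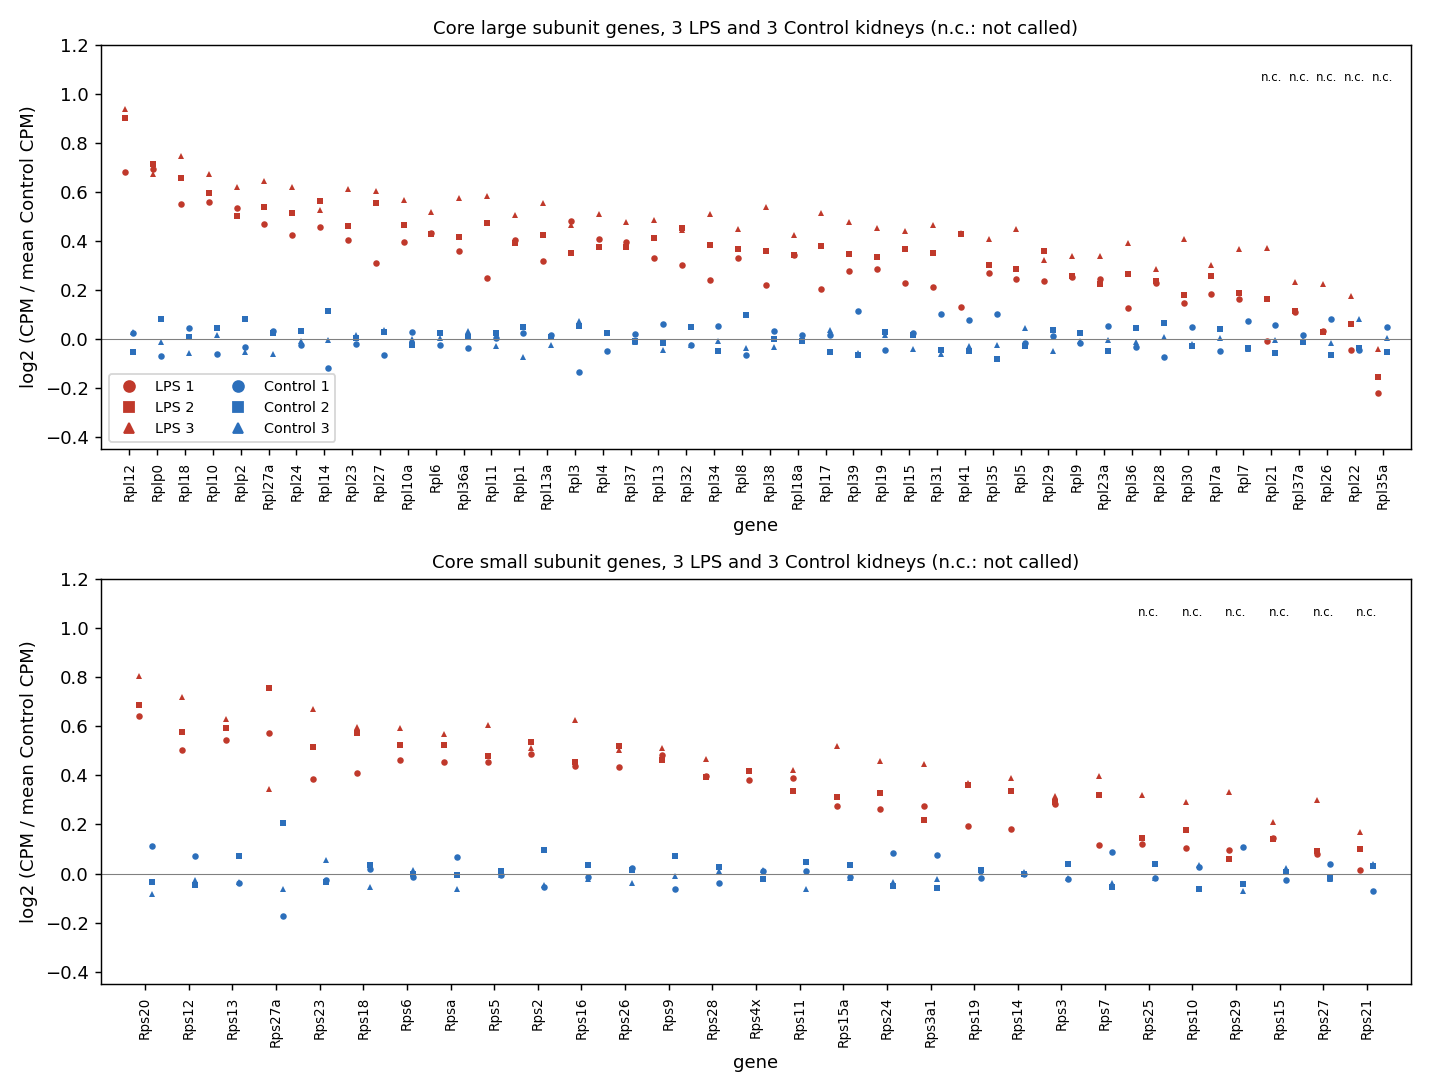
Levels in each library of 75 of the 77 core genes, as log2 of the CPM over the gene's mean Control CPM, large subunit above and small subunit below, ordered by fold change. LPS points (red) lie above Control points (blue) without overlap for 69 of the 75 genes, and n.c. marks the 11 of them that were not called.

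The stalk is the arm of the large subunit that recruits elongation factors. Rplp0, which anchors the stalk, stood at 1237, 1253 and 1218 CPM in LPS replicates 1, 2 and 3, against 728, 809 and 759 CPM in Control replicates 1, 2 and 3. Its groups lay far apart relative to their spread. Its log2 fold change was 0.69 ± 0.07 (SE), with an adjusted p = 7.78e-05 (edgeR).

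Rpl12, the protein at the base of the stalk, rose most of all core genes. It stood at 291, 339 and 347 CPM in LPS replicates 1 to 3, against 185, 175 and 185 CPM in Control replicates 1 to 3, a log2 fold change of 0.84 ± 0.09 (adjusted p = 6.59e-05, edgeR). All its LPS libraries lay above all its Control libraries. The genes of the dimer-forming stalk proteins followed. Rplp2 averaged 262 ± 11.3 CPM in LPS kidneys, against 179 ± 9.05 CPM in Controls (SD, n = 3 each), and Rplp1 averaged 632 ± 28.2 CPM in LPS kidneys, against 468 ± 20.7 CPM in Controls. All 4 stalk genes were higher, where 84.4% of all core genes were higher. Their median log2 fold change was 0.62, beside 0.38 over all core genes, and they ran from 0.43 for Rplp1 to 0.84 for Rpl12.

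Per unit of gene length, the members with the highest level were Rplp1, Rpl41, Rplp0 and Rpl10. Rplp1 averaged 1345 FPKM in LPS kidneys, against 1003 FPKM in Controls. Rpl41, which encodes the smallest ribosomal protein, averaged 1232 FPKM in LPS kidneys, against 984 FPKM in Controls, with an adjusted p = 0.0177 (edgeR). That call was lost without LPS replicate 2 or 3 and without Control replicate 2 or 3, with adjusted p-values of 0.0563 to 0.0717 (edgeR). Rpl10, one of the last proteins to join the large subunit, averaged 896 FPKM in LPS kidneys, against 591 FPKM in Controls.

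The 4 genes whose proteins lie around the catalytic centre of the large subunit were all higher in RNA, where 84.4% of all core genes were higher. Rpl10 stood at 691, 707 and 747 CPM in LPS replicates 1 to 3, against 449, 483 and 475 CPM in Control replicates 1 to 3, a log2 fold change of 0.61 ± 0.07. Its groups did not overlap, and neither did those of Rpl3 (0.43 ± 0.08), Rpl4 (0.43 ± 0.07) or Rpl8 (0.38 ± 0.08). Rpl5 and Rpl11, which form a particle with a small ribosomal RNA and bind the p53 regulator Mdm2 when free of the ribosome, had log2 fold changes of 0.33 ± 0.08 and 0.44 ± 0.09, with adjusted p-values of 0.00814 and 0.00379 (edgeR). Rpl18, also of the large subunit, stood at 357, 385 and 409 CPM in LPS replicates 1 to 3, against 252, 245 and 235 CPM in Control replicates 1 to 3. Its log2 fold change of 0.65 ± 0.08 was the third largest of the large subunit's core genes.

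Of 8 genes whose proteins lie at the opening of the tunnel through which the new protein leaves, 6 were higher (75%). The share over all core genes was 84.4%. The median log2 fold change of the 8 was 0.34, beside 0.38 over all core genes. Rpl19 (0.36 ± 0.08), Rpl31 (0.35 ± 0.09) and Rpl39 (0.37 ± 0.09) were higher. Rpl26 was not called. It stood at 315, 314 and 360.4 CPM in LPS replicates 1 to 3, against 326, 294 and 304 CPM in Control replicates 1 to 3, and the groups overlapped (log2 fold change 0.10 ± 0.08, adjusted p = 0.357, edgeR). Rpl22, which mice need for the development of one lineage of T cells, averaged 183 ± 13.9 CPM in LPS kidneys, against 175 ± 8.67 CPM in Controls (SD, n = 3 each), with a log2 fold change of 0.07 ± 0.09.

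One core gene had a negative log2 fold change. Rpl35a stood at 197, 206 and 223 CPM in LPS replicates 1 to 3, against 237, 221 and 229.8 CPM in Control replicates 1 to 3. The groups overlapped, and the log2 fold change of -0.14 ± 0.08 was not called (adjusted p = 0.184, edgeR). Of the other large subunit genes Rpl21 and Rpl37a were also not called, with log2 fold changes of 0.18 ± 0.10 and 0.15 ± 0.07. The groups overlapped for Rpl21 but not for Rpl37a, where LPS was higher.

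In the small subunit 24 of 31 core genes were higher (77.4%), none was lower and 7 were not called. Over both subunits, 84.4% of core genes were higher. Rps20, a protein of the head of this subunit, stood at 320.5, 329.9 and 359 CPM in LPS replicates 1 to 3, against 221, 200.1 and 194 CPM in Control replicates 1 to 3. Its log2 fold change of 0.71 ± 0.08 was the largest of the small subunit, and its groups lay well apart (adjusted p = 0.000138, edgeR). Of 5 genes of the head and beak 3 were higher, Rps12, Rps20 and Rps27a, while Rps10 and Rps29 were not called.

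Along the path of the messenger RNA, the 2 genes named here at its entry and the 3 at its exit were higher. Of all core genes, 84.4% were higher. At its entry, Rps2 averaged 832 ± 14.3 CPM in LPS kidneys, against 583 ± 34.9 CPM in Controls (SD, n = 3 each), and Rps3 averaged 577 ± 6.54 CPM in LPS kidneys, against 469 ± 11.2 CPM in Controls. At its exit, Rpsa, which is also known as a laminin receptor, stood at 812, 852 and 879 CPM in LPS replicates 1 to 3, against 621, 590.4 and 568 CPM in Control replicates 1 to 3. Rpsa had a log2 fold change of 0.52 ± 0.08 without overlap, beside 0.49 ± 0.07 for Rps26 and 0.42 ± 0.07 for Rps28. Rps6, the substrate of the S6 kinases downstream of mTOR, had a log2 fold change of 0.53 ± 0.07 and an adjusted p = 0.000306 (edgeR).

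Rps10, Rps15, Rps21, Rps25, Rps27 and Rps29 were among the small subunit genes that were not called. These 6 had positive log2 fold changes, of 0.10 to 0.20. The groups did not overlap for Rps10, Rps15, Rps25 and Rps27, with LPS higher, but did for Rps21 and Rps29. Rps21 averaged 163 ± 8.60 CPM in LPS kidneys, against 153 ± 6.52 CPM in Controls (SD, n = 3 each), with overlap.

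Some ribosomal proteins are made as fusions to ubiquitin or a ubiquitin-like protein. Rps27a, one of the fusions to ubiquitin, stood at 270.0, 307 and 230.2 CPM in LPS replicates 1 to 3, against 161, 209 and 174 CPM in Control replicates 1 to 3. It was higher by 0.57 ± 0.13 on the log2 scale (adjusted p = 0.00574, edgeR), and LPS replicate 3 was its lowest LPS library, while that library was the highest for most core genes. Fau, the fusion to a ubiquitin-like protein, was not called, at 0.16 ± 0.09. Rack1, a scaffold on the small subunit, was higher by 0.50 ± 0.07 (adjusted p = 0.000372, edgeR). Rps27a and Fau, like most genes here, have processed pseudogenes elsewhere in the genome, and reads shared with such copies can be counted at either place or dropped.

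The subunits were compared within each library, in a design whose exact permutation p cannot go below 0.1. The mean log2 CPM of the 53 tested large subunit genes other than copies ending in l, minus that of the 34 small subunit genes, was -0.21, -0.12 and -0.11 in LPS replicates 1 to 3, against -0.20, -0.22 and -0.21 in Control replicates 1 to 3. LPS replicate 1 lay within the Control range. Beside core genes, both sets held pseudogenes and retrogenes, and the large subunit set also held the copies ending in l1. The small subunit set included the retrogene Rps23rg1, with a log2 fold change of -1.69. The difference between the groups was 0.07 (exact permutation test, two-sided, p = 0.2), and over core genes alone it was -0.01 (exact permutation p = 0.3). The part of single genes outside the core in this difference was not tested. The smallest possible p, 0.1, was reached with summed FPKM, where the difference was 0.0159, and without LPS replicate 1, where it was 0.0957. The median log2 fold change was 0.38 for 46 core genes of the large subunit, of which 41 were higher, and 0.40 for 31 of the small subunit, of which 24 were higher.

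The copies ending in l or l1 are named after a core gene, and some of them can replace or supplement its protein in particular tissues. Where a copy and its core gene are close in sequence, reads can be split between them, so single values are uncertain. Rpl36al stood at 114, 106 and 128 CPM in LPS replicates 1 to 3, against 90.8, 88.7 and 82.3 CPM in Control replicates 1 to 3. It was higher by 0.42 ± 0.09 on the log2 scale without overlap, beside 0.45 ± 0.08 for its core gene Rpl36a, which averaged 119.7 ± 9.44 CPM in LPS kidneys, against 87.5 ± 2.12 CPM in Controls (SD, n = 3 each). Rpl6l averaged 37.2 ± 1.19 CPM in LPS kidneys, against 27.4 ± 1.17 CPM in Controls. It was higher by 0.44 ± 0.07, beside 0.46 ± 0.07 for Rpl6.

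Rps27l, a target of p53, was not called, like its core gene Rps27. Rps27l stood at 137, 149 and 157 CPM in LPS replicates 1 to 3, against 146, 133 and 130.3 CPM in Control replicates 1 to 3, with overlap and a log2 fold change of 0.11 ± 0.09. Rps27 had 0.16 ± 0.09 (adjusted p = 0.145, edgeR). Rpl7l1 was higher by 0.34 ± 0.09, beside 0.24 ± 0.08 for Rpl7. The call of Rpl7 (adjusted p = 0.0371, edgeR) was lost in 7 of 17 alternatives, among them leaving out LPS replicate 2 or 3 or Control replicate 2 or 3, with adjusted p-values of 0.0557 to 0.124.

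Rpl22l1, the paralogue of Rpl22, varied among the LPS libraries. It stood at 41.5, 50.9 and 62.4 CPM in LPS replicates 1 to 3, against 51.6, 51.0 and 54.1 CPM in Control replicates 1 to 3. The LPS libraries lay on both sides of the Control libraries, and the log2 fold change was -0.02 ± 0.13 (adjusted p = 0.920, edgeR). Without LPS replicate 1 it was 0.12.

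The copies known from other tissues were low. Rpl3l, which takes the place of Rpl3 in heart and skeletal muscle, averaged 2.76 ± 0.646 CPM in LPS kidneys, against 2.01 ± 0.268 CPM in Controls (SD, n = 3 each) and was not called (adjusted p = 0.189, edgeR), beside Rpl3 at 612 ± 29.1 CPM in LPS kidneys, against 454 ± 35.3 CPM in Controls. Of 6 tested striated muscle markers 1, Trdn, was lower and 5 were not called, with sums of 5.21 to 7.11 unscaled CPM in LPS kidneys, against 8.32 to 11.04 in Controls. The germ cell paralogue Rpl39l had 6 counts over the LPS libraries, against 2 over the Controls, while its core gene Rpl39 averaged 205 ± 14.7 CPM in LPS kidneys, against 159 ± 11.5 CPM in Controls. Rpl32l had 29 counts over the LPS libraries, against 20 over the Controls, and its core gene Rpl32 was higher by 0.40 ± 0.08. Only 1 of 6 germ cell markers, Dazl, was in the data, with too few counts to test.

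**Figure D4:**
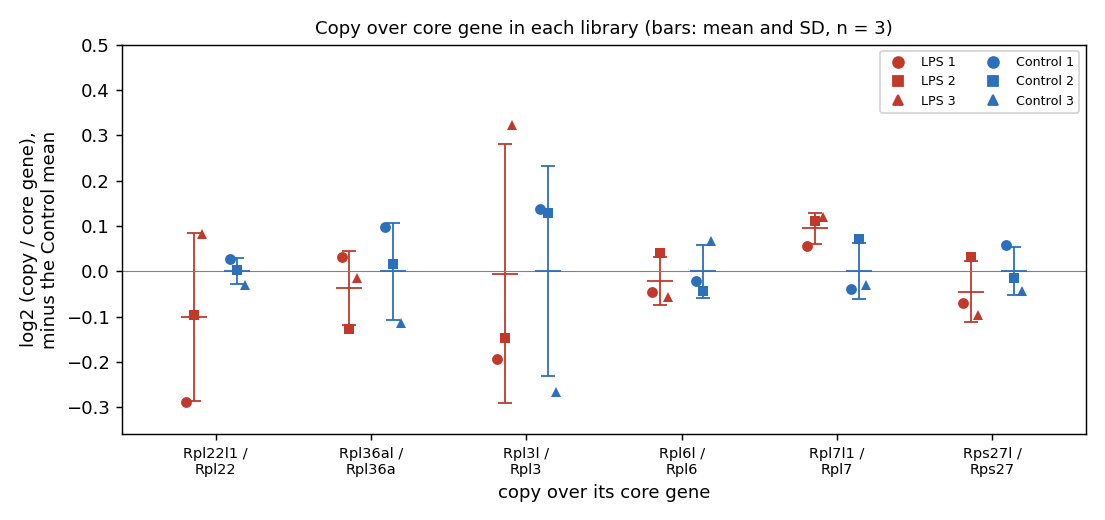
Log2 ratio of each tested copy to its core gene in each library, minus the Control mean of that ratio, with mean and SD (n = 3) for LPS (red) and Control (blue). The groups differ by -0.10 to 0.09 and overlap in every pair.

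Copies were also set against their core genes within each library. Over the 4 tested copies ending in l, the mean log2 CPM of copies minus core genes was -2.93 ± 0.06 in LPS and -2.90 ± 0.08 in Control kidneys (SD, n = 3 each; exact permutation p = 0.8). Over 6 pairs with the l1 copies, the ratio differed between the groups by -0.10 for Rpl22l1 to 0.09 for Rpl7l1 on the log2 scale. The exact permutation p-values were 0.2 to 1, or 0.75 to 1 adjusted over the 6 pairs, in a design that cannot go below 0.1.

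One member fell, and it is a retrogene. Rps23rg1, which arose in the mouse from a reverse-transcribed Rps23 messenger RNA, stood at 1.51, 0.391 and 0.972 CPM in LPS replicates 1 to 3, against 3.14, 3.61 and 2.53 CPM in Control replicates 1 to 3. All LPS libraries lay below all Control libraries. Its log2 fold change was -1.69 ± 0.43 (adjusted p = 0.00979, edgeR), from 92 counts over the LPS libraries, against 282 over the Controls, while Rps23 itself was higher by 0.53 ± 0.09. The other retrogenes were Rpl37rt, higher by 0.36 ± 0.09 beside 0.42 ± 0.07 for Rpl37, and Rps27rt, not called at 0.14 ± 0.12 beside 0.16 ± 0.09 for Rps27.

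All pseudogene symbols but Rpl34-ps1 had few counts. Of 10, 5 passed the filter and 1, Rpl34-ps1, was higher, at 17.0 ± 1.71 CPM in LPS kidneys, against 13.4 ± 0.929 CPM in Controls (SD, n = 3 each). Rpl27a-ps4 had 77 counts over the LPS libraries, against 39 over the Controls, with a log2 fold change of 0.89 ± 0.34 that was not called (adjusted p = 0.0545, edgeR). Rpl17-ps8 and Rpl13-ps6, which varied most within groups beside Rps23rg1, had 92 and 55 counts over the LPS libraries, against 53 and 36 over the Controls, and were not called. The 7 members below the filter were Rpl31-ps12, Rpl32l, Rpl39l, Rps12-ps10, Rps12-ps12, Rps12-ps18 and Rps15a-ps5, with 0 to 29 counts each over the LPS libraries, against 0 to 20 over the Controls.

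Other transcripts that carry the pyrimidine tract were higher in part. Of 16 tested 9 were higher and none was lower, where 25.7% of all genes tested were higher and 24.8% lower, and the median log2 fold change was 0.23. Pabpc1, the poly(A)-binding protein, was higher by 0.72 ± 0.08, and the elongation factor subunits Eef1b2 and Eef1g by 0.58 ± 0.08 and 0.44 ± 0.07 (adjusted p = 0.000102, 0.000244 and 0.000961, edgeR). Eef2, the translocation factor that works at the stalk, averaged 2065 ± 191 CPM in LPS kidneys, against 2067 ± 209 CPM in Controls and was not called.

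Among 16 genes of the mTOR and LARP1 pathway, 7 were higher and 1 was lower, beside the same 25.7% and 24.8% of all genes, with a median of 0.19. The inhibitors of cap-dependent initiation Eif4ebp3 and Eif4ebp1 were higher by 1.86 ± 0.13 and 1.56 ± 0.12, and Ddit4, an inhibitor of mTOR, by 0.94 ± 0.17 (adjusted p = 6.02e-06, 9.01e-06 and 0.00155, edgeR). Larp1 averaged 172 ± 5.83 CPM in LPS kidneys, against 142 ± 4.09 CPM in Controls and was higher by 0.28 ± 0.08. The gene that fell was Tsc2, an inhibitor of mTOR, at -0.22 ± 0.07, and Mtor itself was not called (-0.36 ± 0.15, adjusted p = 0.0771, edgeR).

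Genes that escort, import or assemble ribosomal proteins were higher in 7 of 13 cases and lower in none, beside 25.7% higher and 24.8% lower of all genes, with a median of 0.58. Eif6, which keeps new large subunits from joining small ones, averaged 237 ± 51.7 CPM in LPS kidneys, against 54.8 ± 5.88 CPM in Controls, a log2 fold change of 2.12 ± 0.16 (adjusted p = 8.55e-06, edgeR). The nuclear import receptor Ipo9 was higher by 0.71 ± 0.08 and Ltv1, a factor of small subunit assembly, by 0.86 ± 0.10. Of 11 genes of ribosome stress and quality control 4 were higher and none was lower, a share of higher genes near the 25.7% of all genes, with a median of 0.09 beside 0.01 over all genes. The 3 with the smallest p were as follows. Ascc3, a helicase that takes apart collided ribosomes, was higher by 0.80 ± 0.10. Zfp598, which marks such ribosomes with ubiquitin, was higher by 0.46 ± 0.07, and Abce1, a factor of ribosome recycling, by 0.48 ± 0.10.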

How the data were processed

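RNA from 3 LPS and 3 Control kidneys went through TRIzol extraction and the VAHTS Universal V6 library kit, per the labels' protocols. Each sample came with whole-number read counts and FPKM values per gene symbol, as the authors deposited them. The submitters' processing notes list HISAT2, HTSeq, SAMtools, DESeq2 and R 3.2.0 without saying what each did. Not given in the sources used here were the build, annotation, strand setting and handling of reads with several matches. Antisense partners therefore cannot be told apart from their genes. Each deposited FPKM followed from the count, one gene length and the library total for 106077 of 106080 values, within a relative tolerance of 1e-06.

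Groups came from the sample titles. The design text gives 3 mice per group, so p-values measure the spread between these mice. LPS was compared with Control, two-sided, by edgeR 4.0.16 (R 4.3.3) on the counts, after filterByExpr (minimum count 10, minimum total 15; 3461 genes removed) and TMM scaling, by the quasi-likelihood test with Benjamini-Hochberg adjustment over 14219 genes and a threshold of 0.05. The test was tried on simulated data first. Each SE came from the log2 fold change and its F statistic. CPM is TMM-scaled unless called unscaled, and log2 CPM used a prior count of 2. A log2 CPM value per library, averaged over members, was compared by exact permutation. The 98 genes and all gene lists were chosen with earlier results of these data known, so no list was tested as a whole.

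Values are given for every copy and its core gene, the stalk proteins and Rpsa, the 8 largest and 8 smallest fold changes, the 4 highest FPKM means and the 3 largest spreads. A few items covered by this rule and these lists are not reported here. Other members, and the groups by role, were chosen after their values were seen. From related lists, the 3 genes with the smallest p are given, and others named were chosen after their values were seen. Promoter sequences are those of RefSeq on GRCm38.p6, matched by symbol for 68 of 98 genes. Windows for printing were chosen among core genes with 1 promoter entry, leaving out chromosome 18. Alternatives were RLE factors, library sizes, no filter, genes averaging 1 CPM or more, DESeq2 1.42.0, limma 3.58.1 (voom, log2(FPKM + 1), log2(FPKM + 0.1), genes averaging 1 FPKM or more), a replicate block, a fit without seminal vesicle genes and leaving out each library. Core genes alone were chosen as an alternative after seeing the data.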

Additional observations from a re-analysis of the deposited data

How the results depend on the processing

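The count of higher ribosomal protein genes was 61 to 73 over all alternatives, against 70, and the median log2 fold change kept its sign and stayed between 0.31 and 0.43. The lowest counts, 61, came without Control replicate 2 or 3. With the replicate number as a block 65 genes were higher. No pairing by number was seen, though 3 libraries per group cannot exclude it. Deviations of same-numbered libraries had correlations of 0.0478, -0.0535 and -0.00201, against -0.0865 to 0.111 for differently numbered ones. Not every library correlated best with its own number. Over core genes alone, 0 genes were lower, and the difference between the subunits reversed to -0.0127 (exact permutation p = 0.3). The difference between copies and core genes, -0.03, reversed to 0.0237 with summed FPKM and to 0.117 with the median of members (exact permutation p = 0.7 and 0.1), and lay between -0.0722 and 0.00666 with 1 library left out. Rpl22l1 reversed to 0.12 without LPS replicate 1 and to 0.01 without Control replicate 3, within -0.174 to 0.12. Of the other alternatives for named genes, 491 kept direction and call and 11 lost the call, for Rpl7 and Rpl41. The cause was not tested. Counting error is small at these depths except for members with few counts, such as Rpl3l, Rps23rg1 and most pseudogenes.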
